A study of Ovis aries with 18 samples.

Results

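SLC4A5 (ENSOARG00000012369), LRRC8B (ENSOARG00000015564) and SLC47A1 (ENSOARG00000018143) are 3 membrane transport genes among the 29589 gene IDs counted in lamb testis. They were picked by ID, together with their symbols, because they differed between maternal diets in these same lambs, so their diet differences, and the adjusted p printed beside them, are given here as a description and support nothing. The testis of 18 male Santa Inês lambs was sampled when they were 60 days old, and 1 poly-A library was sequenced for each lamb. Throughout pregnancy and lactation, the mothers of 9 lambs were fed a corn and soybean supplement (control) and those of the other 9 lambs a cottonseed supplement (gossypol-rich), and hay and pasture were offered to all ewes. All lambs also had access to creep feed of corn and soybean meal. Gossypol, a pigment made by the cotton plant, is known to lower sperm production. The 2 supplements differed in their whole composition, so gossypol cannot be told apart from the other components of cottonseed. Libraries of control lambs held 14468612 to 22334428 counts, and those of gossypol lambs 15240624 to 20660132. In whole testis, fewer cells of a type and less RNA per cell cannot be told apart.

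SLC4A5 encodes an electrogenic cotransporter that carries sodium and bicarbonate across the plasma membrane and takes part in the control of cellular pH. LRRC8B is a subunit of the volume-regulated anion channel, which opens when cells swell and requires the subunit LRRC8A. SLC47A1 encodes a proton-coupled antiporter of organic cations, best known for the export of drugs and other toxic compounds from kidney and liver cells. The count files hold no gene symbols, and 0 of their Ensembl IDs were found in the available RefSeq gene table, so every symbol used here, those of the 15 further genes named below included, rests on an earlier matching by eye of labelled points in a plot of the study to the IDs. LRRC8B is the least certain of the 3, as its point lies close to another. Since the files hold no symbols, testis marker genes and the other bicarbonate, anion channel and organic cation transporter genes could not be found by name and were not analysed here. In the RefSeq annotation of assembly ARS-UI_Ramb_v3.0, LRRC8B stands beside its paralogs LRRC8C and LRRC8D, and SLC47A2 lies close to SLC47A1 with ALDH3A2 between them. SLC4A5 overlaps the gene LOC101106158, and LRRC8B overlaps LOC132657996. Reads of overlapping genes may be shared, since the strand setting of the counting is not given in the sources used here. Each of the 3 IDs had its own count profile, shared with 0 other IDs, and all 3 passed the filter on low counts, which kept 18640 IDs.

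SLC4A5 was low in every gossypol lamb and very uneven among control lambs. Its expression, in CPM (the count scaled to a common library size, after TMM normalization), ran from 0.726 CPM in control lamb H32 through a median of 7.95 CPM to 102 CPM in control lamb H22. In gossypol lambs it ran from 1.08 CPM in H25 through a median of 1.51 CPM to 2.44 CPM in H12. The highest and lowest control lambs thus differed 140-fold, against 2.26-fold among gossypol lambs. The lowest control value, in H32, rested on 11 counts, with a 95% exact Poisson interval from 0.362 to 1.30 CPM. Control lambs H31, H39 and H44 had 25, 31 and 31 counts, so the order of the low control lambs is also limited by depth. Control lambs H06, H20, H22, H29 and H37 lay above every gossypol lamb, and control lambs H31, H32, H39 and H44 lay within or below the gossypol range. The SD of log2 CPM was 2.81 in control lambs, at the 99.97th percentile of the 18640 IDs tested, and 0.35 in gossypol lambs, at the 33.6th percentile. In gossypol lambs the gene had between 20 and 50 counts per lamb, and its coefficient of variation was 26.2%, where counting alone gives 18.2%. Most neighbouring gossypol lambs could therefore not be told apart at this depth. The lowest, H25, had a 95% exact Poisson interval from 0.660 to 1.67 CPM and the highest, H12, one from 1.81 to 3.22 CPM. These intervals cover counting error only.

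LRRC8B was also lower in most gossypol lambs, with a smaller distance between diets. Control lambs ran from 11.5 CPM in H31 through a median of 36.6 CPM to 51.7 CPM in H22. Gossypol lambs ran from 6.53 CPM in H25 through a median of 10.8 CPM to 22.3 CPM in H48. The control lambs formed 2 separate clusters, with 4 lambs up to 16.4 CPM and 5 lambs from 36.6 CPM upward, and the gap between them took 53.3% of the log2 range. All 5 lambs of the upper cluster lay above every gossypol lamb, whereas the lower cluster overlapped with the gossypol lambs. The SD of log2 CPM was 0.95 in control lambs, at the 94.5th percentile of tested IDs, and 0.51 in gossypol lambs, at the 63.5th percentile. With 121 to 1179 counts per lamb, counting error was small, at 4.23% of the control mean and 6.58% of the gossypol mean.

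SLC47A1 went the other way, with higher expression in gossypol lambs. Control lambs ran from 0.586 CPM in H29 through a median of 1.28 CPM to 3.22 CPM in H44. Gossypol lambs ran from 2.23 CPM in H48 through a median of 4.56 CPM to 6.66 CPM in H01. Of the gossypol lambs, 6 of 9 lay above every control lamb, and the other 3, H10, H12 and H48, lay below control lamb H44 and above the other 8 control lambs. Counts were low in control lambs, between 10 and 72 per lamb, and their coefficient of variation of 58.1% stood against 20.1% from counting alone. In gossypol lambs, with 45 to 121 counts, these values were 37.3% and 11.1%. The SD of log2 CPM was 0.69 in control and 0.58 in gossypol lambs, at the 83.1th and 71.5th percentiles of tested IDs.

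**Figure D1:**
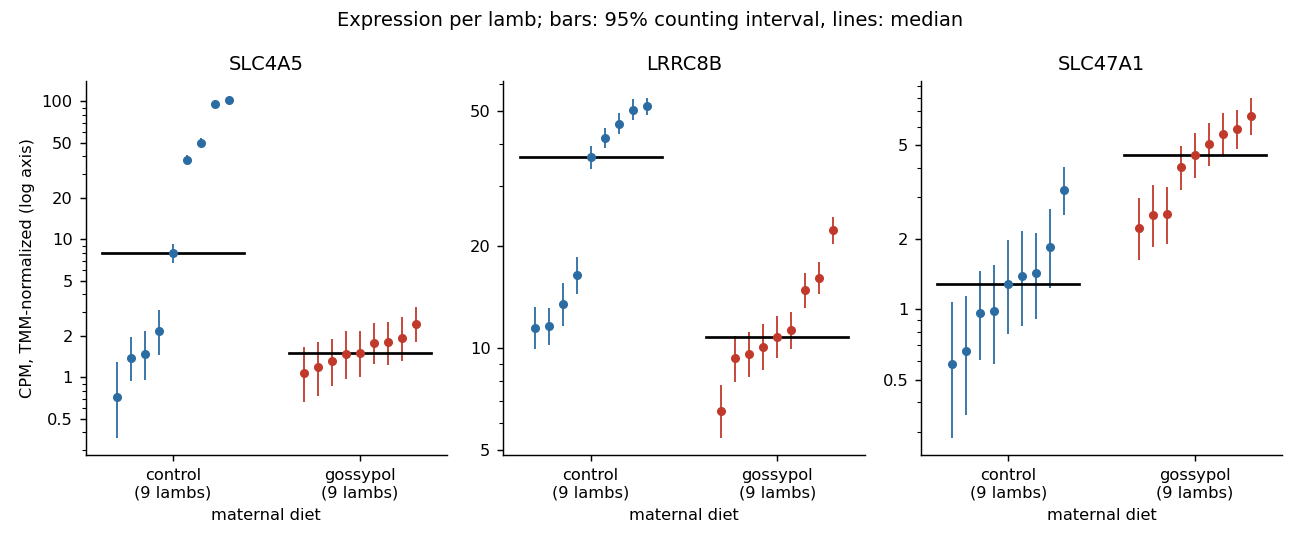
Expression of the 3 genes in each lamb, in TMM-normalized CPM on a log axis, for control (blue) and gossypol (red) lambs sorted by value; vertical bars are 95% exact Poisson counting intervals and horizontal lines are medians. In SLC4A5 and LRRC8B 5 of the 9 control lambs lie above every gossypol lamb, and in SLC47A1 6 of the 9 gossypol lambs lie above every control lamb.

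The diet differences were compared across all IDs to place the 3 genes among them. SLC4A5 averaged 33.3 ± 41.3 CPM (SD, n = 9) under the control diet against 1.61 ± 0.423 CPM (SD, n = 9) under gossypol, and its log2 fold change was -4.36 with a standard error of 0.83. For LRRC8B the means were 31.1 ± 17.5 and 12.3 ± 4.71 CPM (SD over 9 lambs in both diets), and the log2 fold change was -1.33 with a standard error of 0.32. For SLC47A1 they were 1.37 ± 0.797 and 4.35 ± 1.62 CPM, and the log2 fold change was 1.65 with a standard error of 0.31. By the quasi-likelihood test of edgeR, adjusted after Benjamini and Hochberg, all 3 lay under a false discovery rate (FDR) of 10%, with adjusted p of 0.0835, 0.0945 and 0.0835, where 332 of 18640 IDs (1.78%) did so. Of all tested IDs, 1.27% were under that FDR with lower and 0.51% with higher expression in gossypol lambs. Nothing is read from these shares, as the genes were chosen on this contrast, and 0.0835 was the lowest adjusted p of any ID. The pattern of SLC4A5 and LRRC8B, with at least 5 of 9 control lambs above every gossypol lamb, was found in 1186 tested IDs (6.36%). The pattern of SLC47A1, with at least 6 of 9 gossypol lambs above every control lamb, was found in 294 (1.58%).

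The sizes of the differences depended little on any single lamb, but the FDR did. In the 18 fits that each lacked 1 lamb, the log2 fold change was between -4.54 and -3.93 for SLC4A5, between -1.49 and -1.21 for LRRC8B and between 1.55 and 1.92 for SLC47A1. Over these fits the sign did not change in any of the 3 genes. All 3 genes were under an FDR of 10% in 7 of the 18 fits, and 0 of them were in the other 11, where no ID was. The 11 fits were those without control lambs H06, H20, H22, H29 or H37 and those without gossypol lambs H08, H10, H25, H35, H41 or H47. They still had 3095 to 3931 IDs with an unadjusted p below 0.05, and the DESeq2 Wald test of all lambs had 2206 IDs under the FDR of 10%. With limma-voom, which had 0 IDs under the FDR of 10% and 4360 at an unadjusted p below 0.05, none of the 3 was under it, and the log2 fold change of SLC4A5 was smaller, at -2.60.

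**Figure D2:**
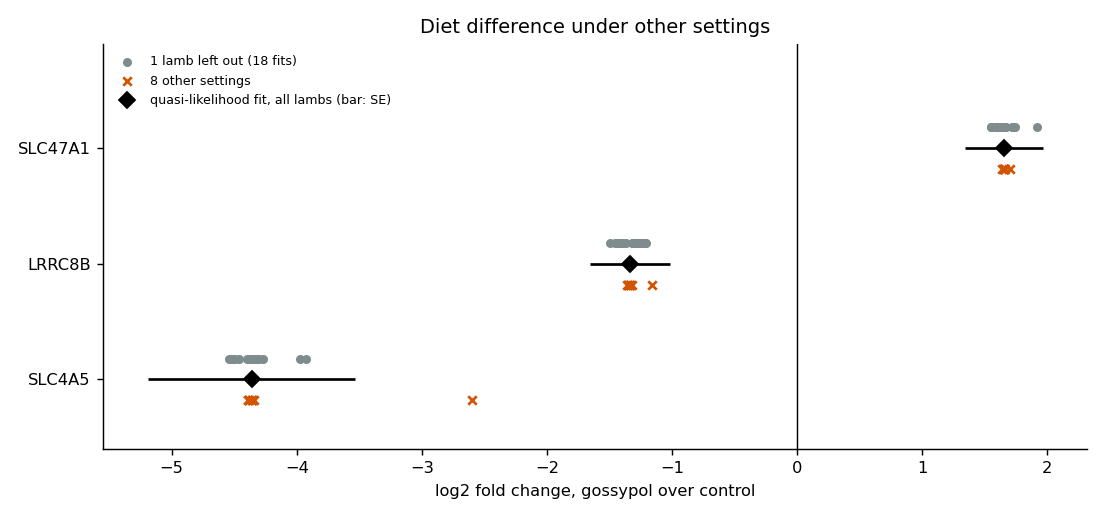
Log2 fold change of gossypol over control for the 3 genes; black diamonds are the quasi-likelihood fit of all lambs with its standard error, grey points the 18 fits with 1 lamb left out, and orange crosses the 8 other settings. All points keep their side of 0, and the limma-voom value of SLC4A5 (-2.60) stands apart from the others.

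Whether SLC47A1 moved opposite to the other genes among lambs of the same diet was examined next. The order of lambs within a diet does not enter the diet contrast, but the same values do, and the genes were picked on them, so relations among the 3 genes are not independent of that choice. In the control diet the higher lambs in SLC4A5 and LRRC8B were the lower ones in SLC47A1, though the order was not opposite lamb by lamb. Lambs H06, H20, H22, H29 and H37 were the 5 highest of the 9 in SLC4A5 and the 5 highest in LRRC8B, and the same 5 were the 5 lowest in SLC47A1. Their SLC47A1 values ran from 0.586 to 1.28 CPM. The remaining control lambs had 1.39 CPM (H39), 1.42 CPM (H31), 1.85 CPM (H32) and 3.22 CPM (H44). The 95% counting intervals of H20 (0.780 to 1.97 CPM) and H39 (0.850 to 2.15 CPM) overlapped widely in SLC47A1. Where the line between the 5 lambs and the others falls in that gene is therefore not resolved at this depth. Such a division was common in the control lambs. The same 5 lambs were the highest in 2456 tested IDs (13.2%) and the lowest in 2416 (13.0%).

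Because the LRRC8B values of control lambs fell into clusters of fewer than 6 lambs, its relations with SLC4A5 and SLC47A1 in that diet were not tested and no correlation is given. For SLC4A5 and SLC47A1 in the 9 control lambs, Pearson's r of log2 CPM was -0.70 (2-sided exact permutation p = 0.0339, adjusted p = 0.136 by Benjamini-Hochberg over the 4 relations tested). Spearman's rho was -0.83 (exact permutation p = 0.00827, adjusted p = 0.0331). Without H22 and H29, the lambs farthest from the median of SLC4A5, r was -0.58. The relation thus passed the threshold by rank and not by Pearson's r. The rank call was lost with RLE size factors (rho = -0.78, exact permutation test, adjusted p = 0.0689), with scaling by total counts alone (rho = -0.72, adjusted p = 0.147), and without H29, H31, H32, H39 or H44 (adjusted p from 0.0871 to 0.147). Of all tested IDs, 12.03% had an r as low or lower with SLC47A1 in these lambs, and 18.02% had one with SLC4A5. Without lamb H37, which had 7.95 CPM of SLC4A5, the SLC4A5 values fell into 2 clusters, and no r is given for that setting.

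In the gossypol diet r of SLC4A5 and SLC47A1 was again negative, but none of the 3 relations passed the threshold. For SLC4A5 and LRRC8B, r was 0.62 and rho 0.57 (2-sided exact permutation test over 9 lambs, p = 0.0721 and 0.121, adjusted p = 0.144 and 0.241). Without H12 and H25 this r was 0.32. For SLC4A5 and SLC47A1, r was -0.51 and rho -0.30 (exact permutation p = 0.157 and 0.437, adjusted p = 0.157 and 0.437), and r was -0.31 without the same lambs. For LRRC8B and SLC47A1, r was -0.56 and rho -0.45 (exact permutation p = 0.122 and 0.230, adjusted p = 0.157 and 0.306), and r was -0.27 without H25 and H48. For SLC4A5 and LRRC8B, the share of all tested IDs with an r at least as far was 1.19% with SLC4A5 and 8.31% with LRRC8B. It was 4.29% with SLC4A5 and 18.4% with SLC47A1 for their relation, and 13.0% with LRRC8B and 15.8% with SLC47A1 for theirs. Lamb by lamb, H48 had the lowest SLC47A1 and the highest LRRC8B, and H12 was the third lowest in SLC47A1, highest in SLC4A5 and second highest in LRRC8B. Lamb H01 went against this order, with the highest SLC47A1 and the third highest LRRC8B, 14.8 CPM. Without H01, r of LRRC8B and SLC47A1 was -0.78 (exact permutation test over the remaining lambs, adjusted p = 0.0441), but rho was -0.74 with an adjusted p of 0.0917 by the same exact test. Without H48, r was -0.30. An opposite movement in gossypol lambs was therefore not shown at this number of lambs, and a difference between diets in these relations was not tested.

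**Figure D3:**
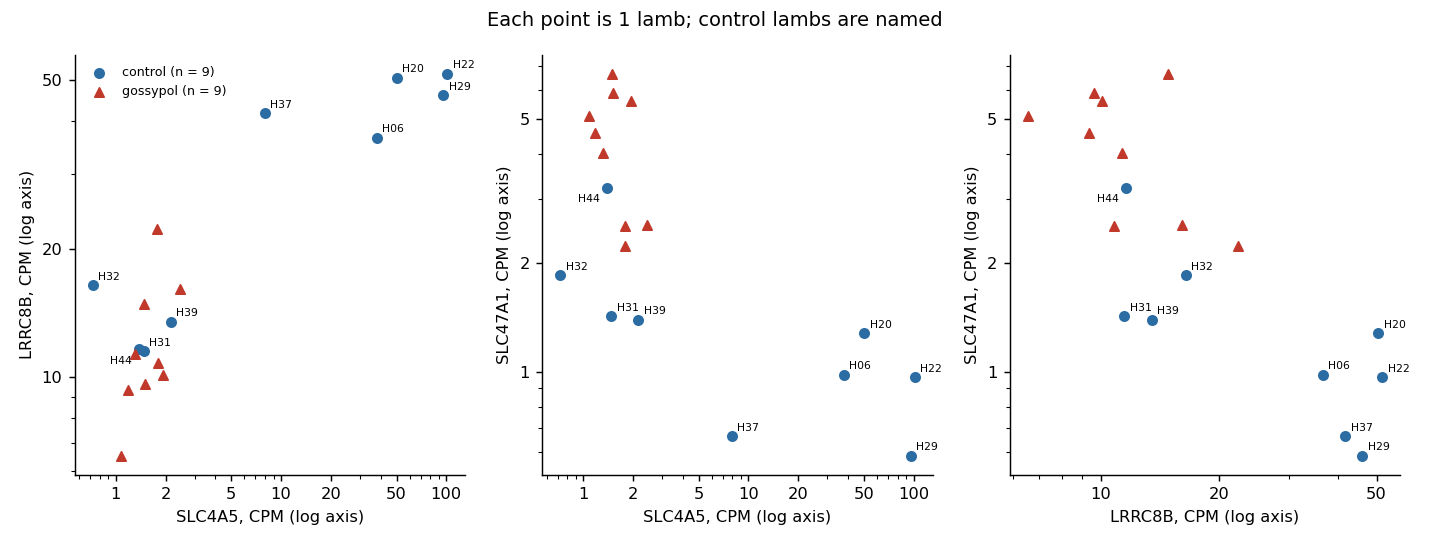
Expression of each pair of genes in CPM on log axes, with 1 point for each control (blue circles, named) and gossypol (red triangles) lamb. Control lambs H06, H20, H22, H29 and H37 stand at high SLC4A5 and LRRC8B and at 1.28 CPM of SLC47A1 or less, while all gossypol lambs stand at 2.44 CPM of SLC4A5 or less.

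The other genes of the diet contrast with a paired symbol were set beside the 3 transport genes in the same way, 10 with lower and 5 with higher mean expression in gossypol lambs. All of them were chosen on these lambs for the same contrast, so relations among them follow in part from that choice. In control lambs SLC4A5 rose and fell with all 10 genes of the lower group. Its r ran from 0.86 with VSIG1, a junctional adhesion protein, to 0.99 with KIAA1210, an acrosomal protein (2-sided exact permutation tests over 9 lambs, adjusted p from 0.00615 to 0.0278 over 72 relations, with rho from 0.77 to 0.97). By rank, 9 of the 10 had an adjusted p under 0.05, and VSIG1 had 0.0642. Without H22 and H29, r ran from 0.78 with CYP4F21 to 0.98 with KIAA1210. In 9 of these 10 genes, all but VSIG1, H06, H20, H22, H29 and H37 were again the 5 highest control lambs, so these relations go with the same division of the control lambs into 5 and 4. For scale, 10.9% of all tested IDs had an r of at least 0.8 with SLC4A5 in control lambs, and 10.9% had one of -0.8 or less. With the 5 genes of the higher group, r of SLC4A5 ran from -0.85 with CACNG4, a calcium channel auxiliary subunit, to -0.22 with SMOC2, a matricellular calcium-binding protein. The adjusted p was under 0.05 for CACNG4 (0.0407) and for the cadherin-related gene CDH23 (r = -0.79, adjusted p = 0.0429; exact permutation tests). By rank this held for CDH23 (rho = -0.83, adjusted p = 0.0350) and not for CACNG4 (rho = -0.63, adjusted p = 0.161; exact permutation tests).

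SLC47A1 showed the opposite signs in control lambs. Its r with the 10 genes of the lower group ran from -0.87 with the cytochrome P450 gene CYP4F21, whose counts are identical to those of 3 other IDs, to -0.43 with VSIG1, and 5 of the 10 had an adjusted p under 0.05. Besides CYP4F21 (exact permutation test over 9 lambs, adjusted p = 0.0158; rho = -0.83), these were MAP3K15, a kinase of the MAP kinase cascade (r = -0.86, adjusted p = 0.0142; rho = -0.92), ADAM11, CST9L and KIAA1210. All 5 also had an adjusted p under 0.05 by rank. For scale, 5.94% of all tested IDs had an r of -0.8 or less with SLC47A1 in control lambs, and 4.82% had one of at least 0.8. Without H29 and H44, the lambs farthest from the SLC47A1 median, r ran from -0.82 with MAP3K15 to -0.35 with VSIG1 and was -0.66 with CYP4F21, -0.62 with ADAM11, -0.68 with CST9L and -0.58 with KIAA1210. With the 5 genes of the higher group r ran from 0.65 with ERBB3, a receptor tyrosine kinase, to 0.78 with GFRA3, a receptor of the GDNF family. Of these, GFRA3 (adjusted p = 0.0429; rho = 0.63) and CACNG4 (adjusted p = 0.0491; rho = 0.70) were under 0.05 by the exact permutation test over 9 lambs, and neither was by rank (adjusted p = 0.161 and 0.107). Without H29 and H44, r was 0.59 with GFRA3 and 0.85 with CACNG4.

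Among gossypol lambs more relations with these genes had an adjusted p under 0.05 for LRRC8B than for SLC4A5 or SLC47A1. The difference between the transport genes was not tested. LRRC8B had an adjusted p under 0.05 with 5 of the 9 genes of the lower group whose values formed no clusters. Over these 9 genes r ran from -0.49 with VSIG1 to 0.90, and it was positive for 7 and negative for 2, VSIG1 and MAGEA10 (r = -0.04). Without the 2 lambs farthest from the LRRC8B median, r turned to 0.66 for VSIG1, whose rho over all 9 lambs was 0, and was -0.74 for MAGEA10. The highest r was with MAGEB18, a cancer-testis antigen (r = 0.90, exact permutation test over 9 lambs, adjusted p = 0.0142; rho = 0.78), followed by KIAA1210, PRND, FATE1 and ADAM11 with r from 0.76 to 0.84. By rank, 2 of these 5 remained under 0.05, KIAA1210 and FATE1 (adjusted p = 0.0295 for both), whereas MAGEB18 had 0.0564, ADAM11 0.0862 and PRND 0.194 (exact permutation tests). The r with PRND was 0.32 without the 2 lambs farthest from the LRRC8B median. In the higher group r was -0.87 with CACNG4 (adjusted p = 0.0142, rho = -0.88) and -0.82 with GFRA3 (adjusted p = 0.0276, rho = -0.83) by the same exact permutation test. Both were under 0.05 by rank as well (exact permutation test, adjusted p = 0.0277 and 0.0350). With SMOC2, ERBB3 and CDH23, r of LRRC8B was -0.14, -0.45 and -0.48, and none of them had an adjusted p under 0.05 by r or by rank. SLC47A1 had an adjusted p under 0.05 only with KIAA1210 (r = -0.81, adjusted p = 0.0295; rho = -0.63; exact permutation test over 9 lambs). SLC4A5, near its counting error in this diet, had one only with GFRA3 (r = -0.80, adjusted p = 0.0378; rho = -0.55), and this r was -0.46 without 2 lambs. By rank neither relation was under 0.05 (exact permutation tests, adjusted p = 0.161 and 0.233). Of all tested IDs, 1.90% had an r of at least 0.8 with LRRC8B in gossypol lambs, 2.05% with SLC47A1 and 0.0322% with SLC4A5. An r of -0.8 or less was found in 2.52%, 2.63% and 0.0966%.

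**Figure D4:**
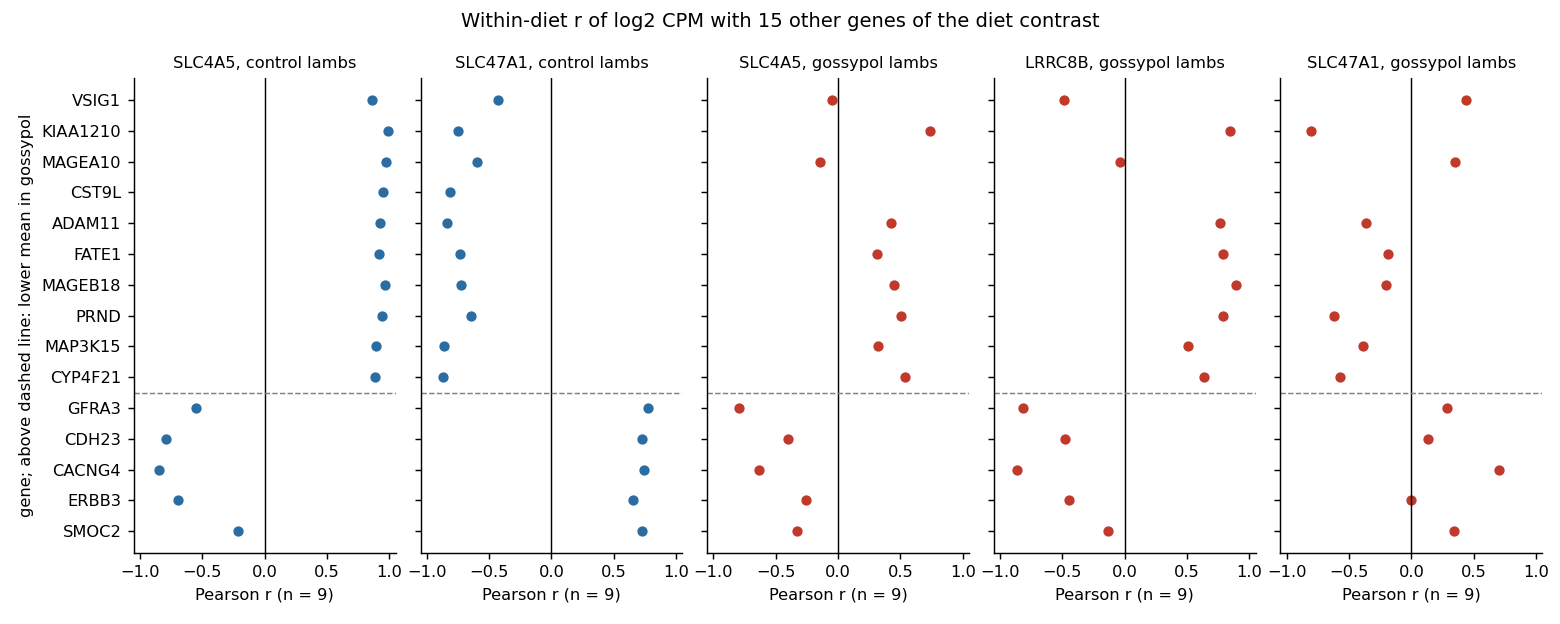
Pearson's r of log2 CPM over the 9 lambs of a diet between a transport gene and 15 other genes of the diet contrast, control in blue and gossypol in red; genes above the dashed line had lower means in gossypol lambs. Panels or points are left out where values fell into clusters, as for LRRC8B in control lambs. In control lambs the r of SLC4A5 is 0.86 or more with all 10 genes above the line, and that of SLC47A1 is below 0 with all 10.

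Over all tested IDs, the profile most like each gene was sought by Pearson's r of log2 CPM centred within each diet over the 18 lambs, as a description without a test. For SLC4A5 the closest ID was ENSOARG00000000582, with r = 0.98, and the most opposite was ENSOARG00000009971, with r = -0.96. The first of these had r = 0.99 within control and 0.63 within gossypol lambs, so the likeness came mostly from the control lambs. For LRRC8B the closest was ENSOARG00000010736, with r = 0.97, and the most opposite ENSOARG00000000476, with r = -0.98. Within gossypol lambs alone, where LRRC8B formed no clusters, these were 0.93 and -0.95. For SLC47A1 the highest r was 0.92 and the lowest -0.87. An r of at least 0.8 on this centred scale was found with 353 IDs (1.89%) for SLC4A5, 707 (3.79%) for LRRC8B and 54 (0.290%) for SLC47A1. What sets these shares apart was not tested, and SLC47A1 had as few as 10 counts in control lambs. Within gossypol lambs alone the share was 2.05% for SLC47A1 and 1.90% for LRRC8B, against 0.0322% for SLC4A5. The r of LRRC8B with SLC4A5 was 0.84 on the centred scale, in which the 2 clusters of control lambs remain. With SLC47A1, r on the same scale was -0.68 for LRRC8B and -0.57 for SLC4A5.

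Measures of the libraries were compared with the 3 genes within each diet. Total counts, IDs with at least 1 count and the percent of counts in the 10 most abundant IDs gave no relation under an adjusted p of 0.05 with any of the genes (2-sided exact permutation tests, adjusted over 18 relations). By Pearson's r, the nearest was SLC47A1 in the 9 control lambs with the number of IDs with counts (r = 0.77, rho = 0.57, exact permutation p = 0.0210 and 0.121, adjusted p = 0.189 and 0.723). Lamb H44 had 26207 such IDs against a control median of 24856, and r was -0.05 without H29 and H44, the lambs farthest from the SLC47A1 median. By rank, the nearest was LRRC8B in the 9 gossypol lambs with total counts (r = 0.48, rho = 0.72, exact permutation p = 0.188 and 0.0369, adjusted p = 0.573 and 0.332). The part of these measures in the LRRC8B values of control lambs was not tested because of the clusters.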

How the data were processed

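Poly-A testis libraries of 18 lambs, 9 for each maternal diet by the labels, were analysed. The authors trimmed single-end reads (Trim Galore 0.4.4), aligned them to Oar_v3.1 (TopHat2 2.1.1), assembled transcripts (Cufflinks 2.2.1) and counted reads with HTSeq, and the deposited values are raw counts per gene ID. All 29589 IDs were read in R 4.3.3; edgeR 4.0.16 filterByExpr (minimum count 10, minimum total 15) kept 18640. Libraries were scaled by TMM and diets compared by the quasi-likelihood test without covariates. Log2 CPM used a prior count of 2. Relations within a diet used exact permutation over all orders of 9 lambs. A gene was called clustered where the largest gap between sorted values, with at least 2 lambs on each side, exceeded 50% of the range. The fits and the permutation test were checked on simulated data. Alternatives were RLE, 2 other filters, exact, likelihood ratio, DESeq2 1.42.0 and limma-voom (limma 3.58.1) tests, identical IDs collapsed, other log2 scales, and each lamb left out. No libraries of the same diet were duplicates: between the closest lambs of 1 diet the chi-square, divided by its degrees of freedom, was 12.1. Pairs across diets were not compared. The genes named are the 3 members, the 15 IDs with paired symbols and the closest and most opposite IDs. Members, lists and tests were chosen with earlier results of these data known, and the library and component measures after the counts were seen. Planned lists of transporter and cell type marker genes need symbols for the IDs and were not run.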

Additional observations from a re-analysis of the deposited data

Results flagged for a closer look

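Control lamb H44 stood apart in the percent of its counts taken by the 10 most abundant IDs, 4.62% against a control median of 7.77%. Its distance to the nearest control lamb, as a share of the range over all control lambs, was 0.499, above Dixon's 95% limit for 9 lambs. Of 12 groups tested, this was the only one past the limit, and chance gives about 5% of groups. H44 also had the highest SLC47A1 of the control lambs, 3.22 CPM, and without it the log2 fold change of SLC47A1 was 1.92.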

How the results depend on the processing

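The log2 fold changes of LRRC8B and SLC47A1 moved by less than their standard error under all 8 alternative settings and in all 18 fits with 1 lamb left out (from -1.49 to -1.21 and from 1.55 to 1.92). That of SLC4A5 did so in 7 settings and in the 18 fits (from -4.54 to -3.93), and it was -2.60 with limma-voom; the cause was not tested. The number of IDs under an FDR of 10%, 332, was 1732 with edgeR's exact test, 1851 with its likelihood ratio test, 2206 with the DESeq2 Wald test and 0 with limma-voom, which had 4360 IDs at an unadjusted p under 0.05. It ran from 0 to 3591 with 1 lamb left out. Under a prior count of 0.5, RLE, total counts only and linear CPM, the 4 Pearson correlations kept their sign and their side of the threshold. Spearman's rho of the 3 gossypol relations did so too, but that of SLC4A5 and SLC47A1 in control lambs, -0.83, lost its call with RLE (-0.78) and with total counts only (-0.72); it was between -0.88 and -0.76 with 1 lamb left out and lost its call in 5 of those 8 fits. The cause was not tested. With 1 lamb left out, r of SLC4A5 and SLC47A1 in control lambs was between -0.75 and -0.61. In gossypol lambs r was between 0.45 and 0.71 for SLC4A5 and LRRC8B, between -0.67 and -0.35 for SLC4A5 and SLC47A1, and between -0.78 and -0.30 for LRRC8B and SLC47A1. Values formed clusters, and gave no r, without H37 in the control and without H47 in both gossypol relations of SLC47A1. The depth limits SLC4A5 in gossypol and SLC47A1 in control lambs, with as few as 20 and 10 counts. It also limits SLC4A5 in the low control lambs, with 11 counts in H32.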

Other observations

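The first principal component of the 500 most variable IDs, with the named genes left out, held 50.02% of their variance between lambs. Control lambs H06, H20, H22, H29 and H37 had scores from 24.4 to 40.4 on it, the other 4 control lambs from -17.3 to -8.58 and the gossypol lambs from -33.2 to 6.72. In the control diet these scores formed clusters, so no correlation with the transport genes is given. In the 9 gossypol lambs r was 0.83 with LRRC8B (rho = 0.85, 2-sided exact permutation p = 0.00586 and 0.00607, adjusted p = 0.106 and 0.109 over the same 18 relations), and it was 0.92 without H25 and H48. It was 0.42 with SLC4A5 (rho = 0.30, exact permutation p = 0.260 and 0.437) and -0.53 with SLC47A1 (rho = -0.47, exact permutation p = 0.148 and 0.213). This component was computed after the counts had been seen, and after adjustment none of the 3 relations passed a threshold of 0.05.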
